A study of Mus musculus with 2 samples.

Results

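The genes described here were 10 interferon-induced antiviral effectors: Ifit1, Ifit2 and Ifit3, Mx1 and Mx2, Rsad2, Ifi44, Ifi35, Bst2 and Ifitm3. They were taken by symbol from 22609 genes counted in Ago2-bound RNA of TM4 cells, a mouse Sertoli cell line. Ago2 immunoprecipitation (IP) recovers RNA held by the miRNA-loaded complex. One library came from cells transfected with miR-471-5p mimic and the other from cells transfected with scramble, and both were collected after 48 h. The labels give no separate culture, genotype or further treatment, and 1 library a group leaves every difference without a replicate check. RNA of the same cells without pull-down was not analysed here, so a larger amount of an mRNA and a stronger Ago2 association cannot be told apart. The genes were chosen by their known mimic to scramble log2 ratios, to set Ifit2 beside relatives that behaved differently, and those ratios are therefore given as a description.

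Interferons signal through cell surface receptors to transcription factors, among them Stat2 and Irf9. These act at the interferon-stimulated response element (ISRE) in the promoters of a large set of genes, and the products of these genes act on different steps of viral replication. Ifit proteins bind foreign RNA and block its translation, Mx proteins are dynamin-like GTPases that trap viral nucleoproteins, Rsad2 (viperin) makes a nucleotide that ends viral RNA chains, Bst2 (tetherin) holds budding virus on the cell surface, and Ifitm3 blocks fusion of viruses in endosomes.

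The transfected miRNA is shown for its seed, bases 2 to 8, which pairs with target mRNAs and is given in capitals (RefSeq, GRCm38.p6, chrX:66792634-66792655, minus strand).
miR-471-5p: uACGUAGUauagugcuuuucac
The 7-base match to this seed, ACTACGT, occurred in none of the reference transcripts of the 10 genes, although 5.89% of the 11772 tested genes with a coding transcript held one. The reference transcript of a gene is the one with the longest coding region in GENCODE M21. The shorter match to bases 2 to 7, CTACGT, occurred once, in the coding region of Ifit1 at position 177 from the start codon, and 22.2% of tested genes held that match somewhere in the transcript. The Ifit1 stretch is printed with the match in capitals.
Ifit1 coding region: ctcctggcCTACGTgaggcacc
No 3′-UTR of the 10 genes held either match.

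Promoter sequence was available for 8 of the 10 genes, all but Mx1 and Mx2, as windows from 250 bases before to 50 bases after each annotated start (RefSeq, GRCm38.p6). The ISRE was searched on both strands as GAAA, any 2 bases and GAAA again and was found in 5 of the 8 genes, Ifit1, Ifit3, Rsad2, Bst2 and Ifitm3. Of all 32851 promoter windows, 3.44% held it. The matches are printed on the strand of the gene, with the motif in capitals. Ifit1 and Ifit3 had a pair each in their windows, and the 2 windows of Ifit2 had none.
Ifit1, 104 bases before the start, chr19:34640777-34640802, plus strand: ggcttcagTTTCACTTTCcagtctca
Ifit1, 85 bases before, chr19:34640796-34640821, plus strand: agtctcagTTTCAGTTTCtcactgct
Ifit3, 156 bases before, chr19:34583365-34583390, plus strand: gtggtaagTTTCACTTTCctcttctg
Ifit3, 122 bases before, chr19:34583399-34583424, plus strand: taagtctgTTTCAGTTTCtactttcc
Rsad2, 120 bases before, chr12:26456555-26456580, minus strand: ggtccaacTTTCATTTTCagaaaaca
Bst2, 130 bases before, chr8:71537585-71537610, minus strand: cattccagGAAAATGAAActgaaagg
Bst2, 124 bases before, chr8:71537579-71537604, minus strand: aggaaaatGAAACTGAAAggctgcag
Ifitm3, 2 bases after, chr7:141010725-141010750, minus strand: aaattcagGAAAAGGAAActtctgag
Ifitm3, 19 bases after, chr7:141010708-141010733, minus strand: acttctgaGAAACCGAAActgccgca
The pair in Bst2 overlapped each other. Neither of the 2 windows of Ifit2 and no window of Ifi35 or Ifi44 held the motif. The bases between the 2 windows of Ifit2, after chr19:34550743 and before chr19:34550838, were not searched. Ifi44 held the shorter form GAAANNGAA, present in 8.56% of windows, 3 bases before its start. The other interferon motif searched was the gamma-activated site (GAS), TTCNNNGAA. It was present in Ifit2, Ifi35, Bst2 and Ifitm3 and in 8.3% of windows, and it overlapped an ISRE match in Bst2 and in Ifitm3. In Ifit2 it lay inside the first window, 241 bases before the annotated start.
Ifit2 GAS, chr19:34550445-34550469, plus strand: atgggagcTTCCTGGAAgaatggat
A match is a stretch of letters and not a measured binding site.

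The authors deposited raw reads per gene, with 18628310 on genes after the mimic and 18717225 after scramble. Entries aligned to several places, 39.85% of those with the mimic and 35.6% with scramble, were not assigned to genes. Of 15 Sertoli markers listed, 6 passed the filter of 20 counts over both libraries, among them Sox9, Gata4, Wt1 and Kitl, while Fshr and Krt18 had no read in either library and Amh had 5 in each. Of 9 leukocyte markers 2 passed, and the defining genes Ptprc, Itgam and Cd3e had no read in either library. The summed leukocyte level was 5.89 CPM with the mimic and 3.32 with scramble, where CPM is the count per 1000000 reads on genes after the scaling described next, of which Cd14 had 81 and 26 reads. Acta2, a marker of peritubular smooth muscle that other cultured cells also express, had 73076 and 101778 reads.

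The ratio of mimic to scramble was computed on counts scaled by TMM, a method of edgeR that sets library sizes so that most genes do not differ. A gene was called higher from a log2 ratio of 1 upwards and lower from -1 downwards. All 10 genes passed the count filter, 8 of them were called higher in the mimic library and none was called lower. Of the 12186 genes tested, 3.96% were called higher and 3.08% lower by the same rule, and this gives the background of the count without testing it, because the same ratios chose the genes. With the threshold at 0.5, 9 of the 10 genes were higher and none was lower, where 14.9% of all genes were higher and 12.2% lower. At 1.5 the count was 4 higher and none lower, where 1.66% of all genes were higher and 1.07% lower. A ratio above 0 was found in 9 of the 10 genes and in 49.9% of all genes, and the whole counting interval lay past 1 in 8 of the 10 and in 1.76% of all. If a coefficient of variation of 0.2 between replicates is assumed, 4 of the 10 genes and 1.21% of all passed edgeR's exact test at a ratio past the threshold, and at 0.4 none of the 10 and 0.0246% of all. The median log2 ratio of the 10 genes was 1.42, and that of all tested genes was -0.001. The 2 genes below the threshold were Ifi35 and Ifit2. Intervals given with log2 ratios are exact 95% Clopper-Pearson intervals from the share of a gene's reads in the mimic library, and they cover counting error only.

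**Figure D1:**
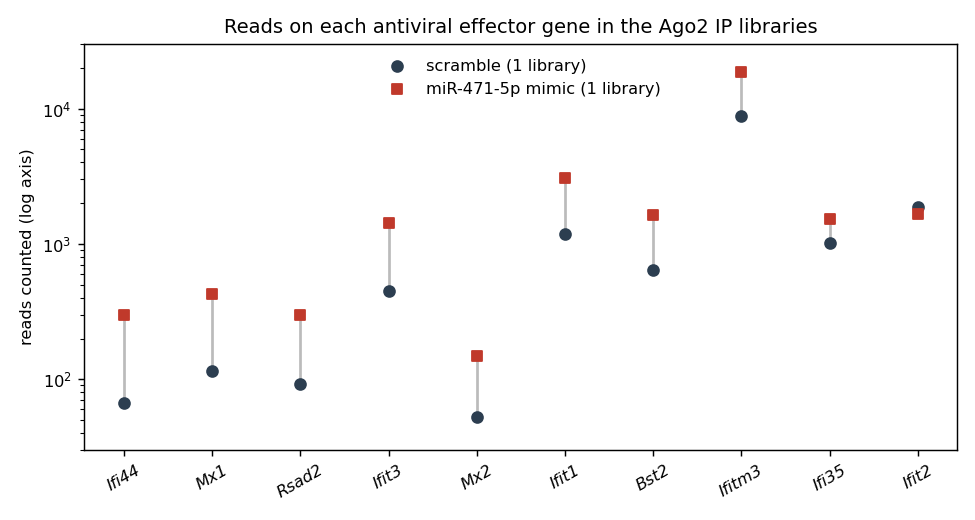
Reads counted on each antiviral effector (log axis) in the scramble library (circles) and the miR-471-5p mimic library (squares), 1 library each, ordered by ratio. The mimic square lies above the scramble circle in 9 genes and below it in Ifit2, with 1665 against 1859 reads.

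Ifit2 was the one of the 3 Ifit genes that was not higher with the mimic. It had 1665 reads with the mimic and 1859 with scramble. Its relative Ifit1 had 3048 reads with the mimic and 1185 with scramble, and Ifit3 had 1435 and 449. Ifit1 and Ifit3 were thus higher with the mimic while Ifit2 was slightly lower. The log2 ratio was -0.16 for Ifit2 (95% interval -0.26 to -0.06), 1.36 for Ifit1 (1.27 to 1.46) and 1.68 for Ifit3 (1.52 to 1.83). Among all tested genes Ifit2 lay at percentile 34.7, Ifit1 at 98.0 and Ifit3 at 98.8.

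Set against each other within the same libraries, where library scaling cancels, the mimic to scramble ratio of Ifit1 was 2.87 times that of Ifit2 (95% exact conditional interval 2.61 to 3.16). The ratio of Ifit3 was 3.57 times that of Ifit2 (3.14 to 4.05). Ifit2 made up 53.2% of the reads on these 3 genes in the scramble library (95% Wilson interval 51.6 to 54.9%) and 27.1% in the mimic library (26.0 to 28.2%). In the scramble library it was the gene of the family with the most reads, and in the mimic library Ifit1 was.

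Levels between genes are compared per length, as reads per kilobase of the longest annotated transcript per 1000000 scaled reads (RPKM). In the scramble library Ifit2 stood at 26.1 RPKM (95% exact Poisson interval 24.9 to 27.3) and Ifit1 at 23.9 (22.6 to 25.3), levels whose intervals overlap, while Ifit3 stood lower at 13.8. With the mimic Ifit1 stood at 61.4 RPKM, Ifit3 at 44.0 and Ifit2 at 23.4 (22.2 to 24.5). Among these 3 genes Ifit2 was therefore the lowest with the mimic, while with scramble it and Ifit1 were the higher pair. The level of Ifit3 is a minimum, since 51.2% of the 50-base stretches of its transcript also occur in its close copy Ifit3b. Reads confined to such stretches align to both genes and were left out. For Ifit1 that share was 7.13%, and for Ifit2 it was 0%. The read length was not given in the sources used here, and with 100-base stretches the share for Ifit3 was 31.7%.

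The chromosomal neighbours of Ifit2 were examined next. The Ifit genes lie together on chromosome 19, and in GENCODE M21 the order of coding genes is Ch25h, Lipa, Ifit2, Ifit3, Ifit1bl1, Ifit3b, Ifit1bl2, Ifit1 and Slc16a12. Ifit3 starts 32.8 kb from Ifit2. Ifit3b, listed under an older symbol, had 464 reads with the mimic and 166 with scramble, a log2 ratio of 1.48 (1.22 to 1.75). Its difference from Ifit3, 0.19, had an interval from -0.11 to 0.50 that includes 0. The promoter window of Ifit3b held the same pair of ISRE matches as that of Ifit3, with identical letters. Ifit1bl1 had 16 reads in each library and a log2 ratio of -0.001, with a wide interval from -1.096 to 1.094. Ifit1bl2 had 16 and 13 reads and a log2 ratio of 0.299 (-0.85 to 1.475). Both passed the filter and neither was called. At least 1 window of each held an ISRE match, and the pair printed for Ifit1 lies within the window of Ifit1bl2 on the opposite strand.

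On the other side of Ifit2, Lipa, which encodes lysosomal acid lipase, had 1092 and 1143 reads in the mimic and scramble libraries and a log2 ratio of -0.07 (-0.19 to 0.05). The log2 ratio of Ifit2 was below that of Lipa by a difference of -0.09, with an interval from -0.25 to 0.06. Ch25h, past Lipa, had no read in either library. Past Ifit1, at the other end of the cluster, Slc16a12 had 1 read in each, Pank1, a pantothenate kinase gene, was called lower with 189 and 388 reads and a log2 ratio of -1.04 (-1.30 to -0.78), and the kinesin gene Kif20b had 1056 and 1050 reads and a log2 ratio of 0.01. Of 22 genes listed around the 10 effectors, some beyond the nearest ones, 17 passed the filter. The 2 called higher, Cmpk2 and Plvap, were 11.8% of the 17, and Pank1 was the one called lower. Of all tested genes 3.96% were called higher and 3.08% lower. The row of genes from Lipa to Ifit1 therefore had ratios near 0 in Lipa and Ifit2, and ratios above the threshold in Ifit3, Ifit3b and Ifit1. Ifit1bl1 and Ifit1bl2, which lie between Ifit3 and Ifit1, were not called, at -0.001 and 0.299 from few reads.

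**Figure D2:**
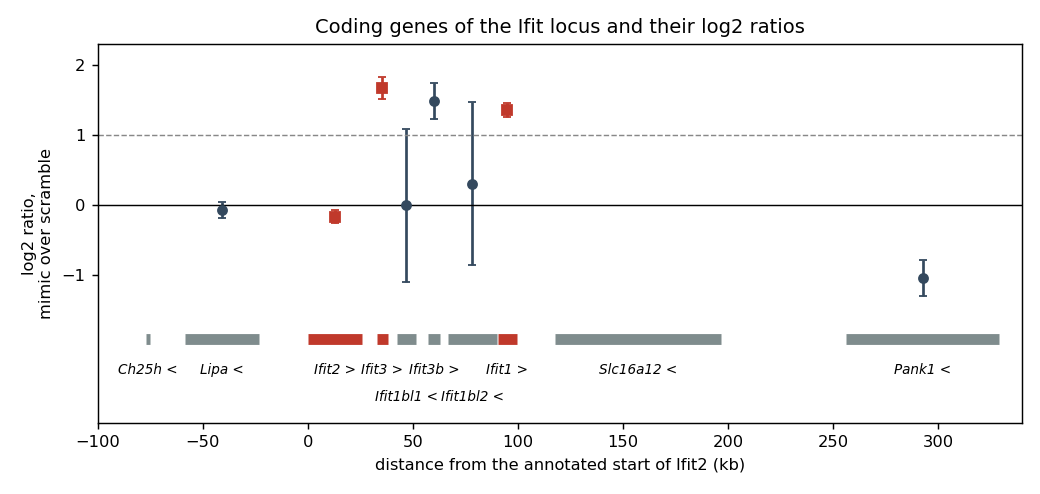
Log2 ratio of mimic over scramble (points, with 95% counting intervals) for coding genes of the Ifit locus with at least 20 counts, above bars that mark each gene by its distance in kb from the annotated start of Ifit2. Lipa and Ifit2 lie near 0, Pank1 lies at -1.04, and Ifit3, Ifit3b and Ifit1 lie above the dashed line at 1. Ifit1bl1 and Ifit1bl2 lie below that line with wide bars, and the arrowheads give the direction of transcription.

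The Mx genes were called higher together. Mx1 had 428 reads with the mimic and 116 with scramble, and Mx2 had 148 and 53. Mouse Mx1 acts in the nucleus and Mx2 in the cytoplasm, and many inbred laboratory strains carry a defective Mx1 allele. Their log2 ratios were 1.88 (1.58 to 2.19) and 1.48 (1.02 to 1.96), a difference of 0.40 whose interval from -0.17 to 0.96 includes 0. Both were low in level, at 1.84 RPKM for Mx1 and 1.15 for Mx2 in the scramble library and 6.77 and 3.2 in the mimic library. Of the 50-base stretches of Mx1 4.77% also occur in Mx2. Of the coding genes beside them, Bace2 had 47 and 35 reads, Tmprss2 9 and 3, and Fam3b none.

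Rsad2 had 298 reads with the mimic and 93 with scramble, a log2 ratio of 1.68 (1.34 to 2.03). Its neighbour Cmpk2, a mitochondrial nucleotide kinase gene that is itself interferon-induced, had 316 and 130 reads and a log2 ratio of 1.28 (0.98 to 1.59). Rnf144a, on the other side of Rsad2, had 2763 and 1748 reads and was not called, at 0.66 (0.57 to 0.75). Ifi44, an interferon-induced cytoplasmic protein, had the highest ratio of the 10 genes. It had 297 reads with the mimic and 67 with scramble, a log2 ratio of 2.15 (1.76 to 2.55) or 4.43-fold. Ifi44l beside it had 3 and 2 reads and did not pass the filter.

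The membrane proteins Bst2 and Ifitm3 were called higher with the mimic. Both calls were lost, at log2 ratios of 0.92 and 0.64, once the median of genes of similar transcript length was subtracted. Bst2 had 1643 reads with the mimic and 641 with scramble, a log2 ratio of 1.36 (1.22 to 1.49). Mvb12a beside Bst2 had 799 and 632 reads and a log2 ratio of 0.34. Plvap, an endothelial diaphragm gene farther from Bst2 on the other side, had 211 and 55 reads and was called higher, at 1.94 (1.51 to 2.39). Ifitm3 was by far the most abundant of the 10, with 18777 and 8869 reads, and it supplied 64.1% of all reads on the 10 genes with the mimic and 61.8% with scramble. Its log2 ratio was 1.08 (1.04 to 1.12), or 2.12-fold. Per length, Ifitm3 stood at 701 RPKM in the scramble library, rank 22 of the 22191 genes with an annotated length, and at 1483 RPKM and rank 15 in the mimic library. Multiply aligned reads are left out of these ranks, so genes that lose many such reads can stand too low beside it. The sum over the 10 genes was 2.04-fold higher in the mimic library, and without Ifitm3 it was 1.92-fold higher.

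The other Ifitm genes were read beside Ifitm3. Ifitm2 had 5138 reads with the mimic and 2972 with scramble, a log2 ratio of 0.79 (0.72 to 0.86), and Ifitm1 had 367 and 207, a log2 ratio of 0.83 (0.58 to 1.08). Ifitm7 had 103 and 57 reads (0.85, from 0.37 to 1.35). Ifitm6 had 19 and 6 reads and a log2 ratio of 1.66 with a wide interval from 0.28 to 3.28, and Ifitm5 had 14 and 2 reads and did not pass the filter. All 4 that passed the filter had positive ratios, and 1 of the 4, Ifitm6, was called. Over all tested genes 49.9% had a ratio above 0 and 3.96% were called higher. All 4 have short transcripts, and the median log2 ratio of tested genes of similar length was 0.44. After that median was subtracted, Ifitm1 stood at 0.39, Ifitm2 at 0.35, Ifitm7 at 0.42 and Ifitm6 at 1.225. The ratio of Ifitm3 exceeded that of Ifitm2 by 0.29 on the log2 scale (0.22 to 0.37). Of the 50-base stretches of Ifitm2 48.5% occur in other genes, most of them predicted genes, against 10.0% for Ifitm3.

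Ifi35, which binds the interferon-induced protein Nmi, was higher in the mimic library but below the threshold. It had 1535 reads with the mimic and 1012 with scramble, a log2 ratio of 0.60 (0.48 to 0.72) or 1.52-fold. Its window held no 10-base ISRE match, as was also so for Ifi44, and a link of the motif to the ratios was not tested. An antisense gene covers 16.8% of the exon bases of Ifi35, and whether the counting used strand was not given, so reads of the pair cannot be told apart there. The genes on either side of Ifi35 had log2 ratios of 0.44 for Rpl27, from 42 and 31 reads, and 0.43 for Vat1, from 7726 and 5746 reads. The interval of Vat1, 0.38 to 0.48, lay just below that of Ifi35.

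**Figure D3:**
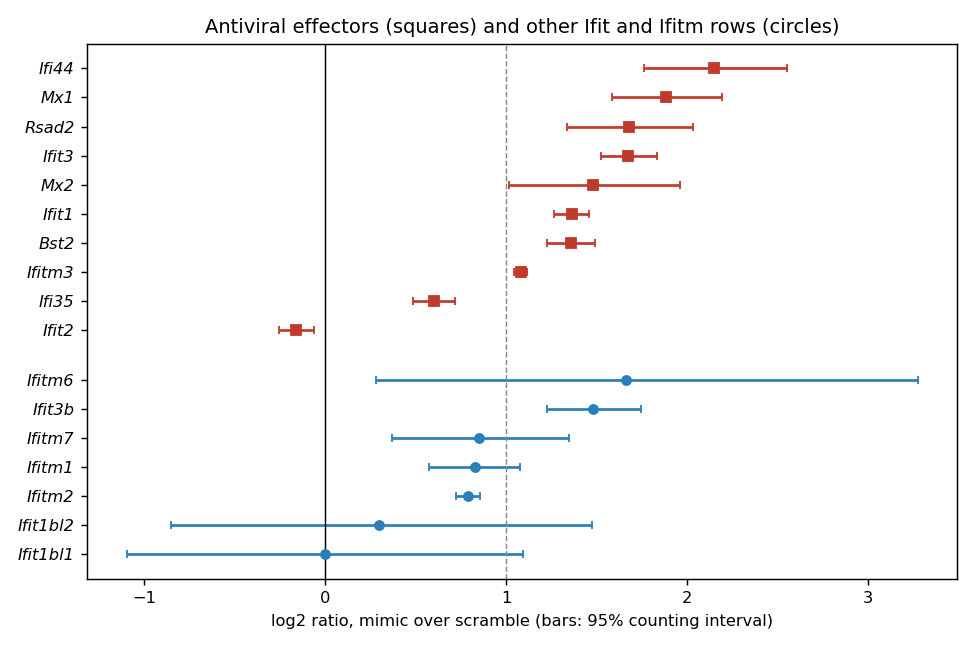
Log2 ratio of mimic over scramble (horizontal axis) with 95% counting intervals for the 10 antiviral effectors (squares) and the other Ifit and Ifitm genes with at least 20 counts (circles). The solid line marks 0 and the dashed line the threshold of 1, and the wide bars of Ifitm6, Ifit1bl1 and Ifit1bl2 come from 25, 32 and 29 reads in all.

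In order of log2 ratio the 10 genes were Ifi44, Mx1, Rsad2, Ifit3, Mx2, Ifit1, Bst2, Ifitm3, Ifi35 and Ifit2. From Ifi44 down to Bst2, no gene differed from the next in this order beyond its counting interval. The steps from Bst2 to Ifitm3, from Ifitm3 to Ifi35 and from Ifi35 to Ifit2 each had intervals above 0, at 0.28 (0.14 to 0.41), 0.48 (0.36 to 0.60) and 0.76 (0.61 to 0.91). Ifit2 differed from the other genes beyond the counting interval in all 9 pairs, and so did Ifi35, whereas the other 8 genes differed in 14 of their 28 pairs. These intervals were not adjusted for the number of pairs and cover counting error only. The ratio of Ifit2 was known to differ when the genes were chosen, so its 9 pairs are a description. Ifi44, Mx1 and Rsad2, at the top of the order, were also among the 4 genes with the fewest scramble reads, beside Mx2.

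**Figure D4:**
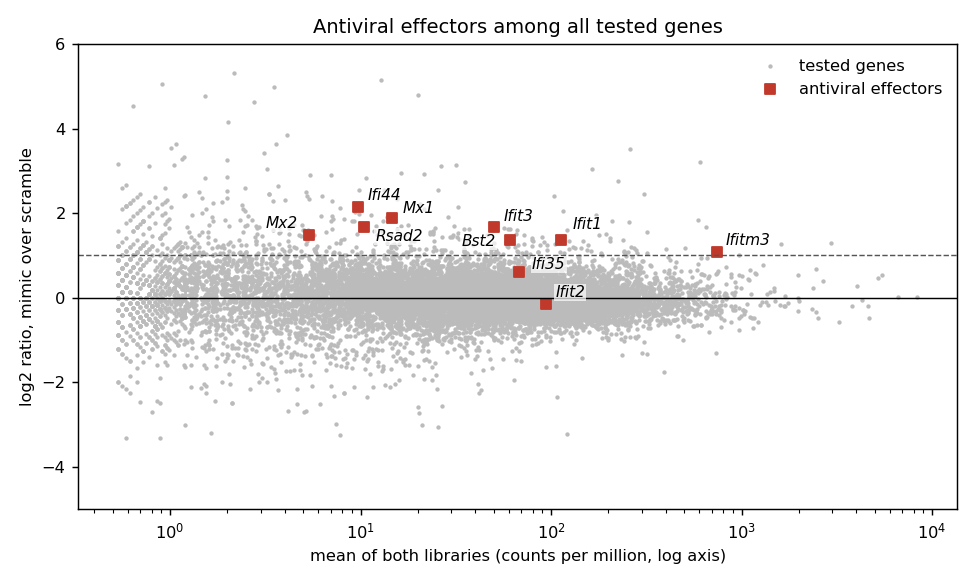
Log2 ratio of mimic over scramble (vertical axis) against the mean of both libraries (CPM, log axis) for tested genes (grey) and the 10 antiviral effectors (squares), with 1 tested gene at 0 in the scramble library left out. Of the squares 8 lie above the dashed line at 1, and Ifit2 lies within the bulk of genes of its abundance.

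Transcript length moved with the ratio over all genes. When the tested genes with a coding transcript were split into 10 groups of length, the median log2 ratio was 0.44 in the shortest group and -0.25 in the longest. The shortest group holds Ifitm3, of 678 nucleotides, and Bst2, of 792, and after the median of their group was subtracted their log2 ratios were 0.64 and 0.92, below the threshold. The other 6 called genes stayed above 1, from 1.34 in Ifit1 to 2.13 in Ifi44, so that 6 of 10 were called on this scale against 3.35% of the 11772 genes. Ifit2 has a long transcript of 3818 nucleotides and lay near the median of its group, at -0.05 after subtraction. Rsad2, of 3782 nucleotides and in the same group, was at 1.79. What the length trend adds to these ratios was not tested further.

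**Figure D5:**
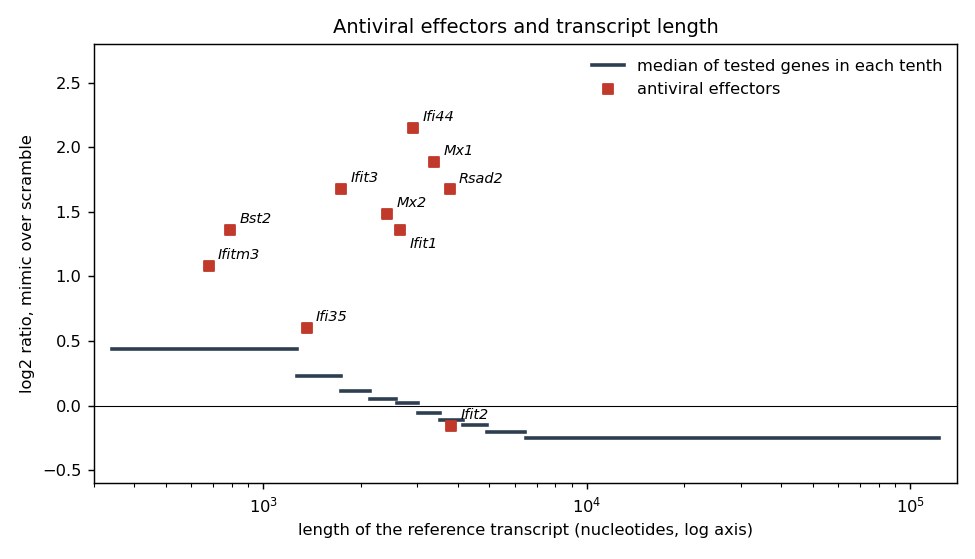
Log2 ratio of mimic over scramble (vertical axis) against length of the reference transcript (nucleotides, log axis) for the 10 antiviral effectors (squares), with horizontal lines for the median of the tested genes in each of 10 length groups. The medians fall from 0.44 to -0.25, and Ifit2 lies on this trend while Rsad2, of nearly the same length, lies at 1.68.

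The mRNAs of the 10 genes differed in their 3′-UTRs. The 3′-UTR was 1945 nucleotides in Ifit2, 1152 in Ifit1 and 464 in Ifit3. The pentamer ATTTA, a part of AU-rich elements that can shorten the life of mRNAs, was counted as letters only. It occurred 3 times in the 3′-UTR of Ifit2, once in Ifit1 and not in Ifit3. The highest number, 7, was in the 3′-UTR of Ifi44, the gene with the highest ratio, and 65.8% of tested genes held at least 1. The longer form TATTTAT was found in the 3′-UTRs of Ifit1, Mx1 and Ifi44, not in that of Ifit2, and in 27.7% of tested genes. These counts were not scaled to 3′-UTR length, and a link to the ratios was not tested.

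The rest of the interferon pathway was read from lists. Among 19 interferon ligand genes counted, 16 had no read in either library, and the ligands had 1 read with the mimic and 3 with scramble in all, with Ifnb1 at 0 and 1. At these depths a count of 0 allows up to 3 reads, or 0.161 CPM in each library, for counting error only. Multiply aligned reads were not counted, and a low count need not mean little RNA: Gapdh, abundant in most cells, had 20 and 11 reads and Ppia 10 and 8. How many reads the closely similar interferon alpha genes lost in this way was not tested. The receptors Ifnar1 and Ifnar2 had 3140 and 2886 reads with the mimic and 2840 and 2046 with scramble, and of the 5 receptor genes that passed the filter none was called. Stat2 and Irf9 were not called either, with log2 ratios of 0.60 for Stat2 (0.52 to 0.68) and 0.61 for Irf9 (0.51 to 0.72). Irf7, an interferon-induced factor that drives interferon genes, was called higher with 696 and 222 reads and a log2 ratio of 1.65 (1.43 to 1.87).

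A further 82 interferon-stimulated genes were listed from general knowledge, but with earlier results of these data known, and 73 passed the filter. In the mimic library 24 of the 73, or 32.9%, were called higher, none was called lower, and 62 had a ratio above 0, with a median log2 ratio of 0.59. The share called was above the 3.96% of all tested genes and below the 8 of 10 effectors, and neither difference was tested. The highest were Psmb8 of the immunoproteasome (log2 ratio 3.04), the nucleic acid sensor Zbp1 (2.56), the guanylate-binding protein Gbp5 (2.52), Psmb9 (1.96) and Oasl1 (1.83). The lowest were Uba7, the activating enzyme for Isg15, at -0.29, the scramblase gene Plscr2 at -0.28, the nucleotide hydrolase Samhd1 at -0.24, Trim30a at -0.18 and the ubiquitin ligase Trim25 at -0.17. Ifit2, at -0.16, lay close to these last genes. It was not the sole interferon-stimulated gene with a ratio at or below 0, since 11 of the 73 had one.

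The ISRE match was also counted over all tested genes, a set that includes the 10 genes. Of the 9674 tested genes with a window, 350 held a match, and 9.71% of these were called higher against 3.41% of those without. In the list of further interferon-stimulated genes 57 had a window. Of the 27 with a match 7 were called higher, and of the 30 without 8 were called, with median log2 ratios of 0.65 and 0.46. With the longer form, in which a C follows the 10 bases, 6 of 17 with a match and 9 of 40 without were called, with medians of 0.78 and 0.52, and over all tested genes 20.2% of those with a match and 3.47% of those without were called. Of the genes called with a match over all tested genes, 5 with the 10-base form and 4 with the longer form were among the 10 effectors. Those effectors were chosen with their ratios known. These are descriptions of sequence and carry no test.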

How the data were processed

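Ago2 IP RNA of TM4 cells was sequenced by the authors in 1 library per transfection, miR-471-5p mimic and scramble. The deposited values are raw read counts, 1 per gene symbol, with 5 summary rows. Per the labels' processing notes, CASAVA 1.8.2, TopHat2 2.0.8b, HTSeq and build mm9 were used, and the annotation, strand setting and read length are not given in the sources used here. The summary rows were left out of library sizes, and took these shares of entries: reads in no gene 6.84% with the mimic and 7.89% with scramble, ambiguous reads 0.653% and 0.586%, and multiply aligned entries as given above.

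A gene was tested if its counts in the libraries summed to 20 or more. TMM factors, 1.0026 for mimic and 0.9974 for scramble, came from edgeR 4.0.16 under R 4.3.3. A quasi-likelihood fit needs replicates and was not possible with 1 library a group, so genes were called by a log2 ratio past 1 or -1, with exact counting intervals in scipy 1.17.1 (Python 3.11.15). PCR duplicates cannot be removed from counts, and intervals and detection limits cover counting error only. Scripts were tested on simulated data.

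Transcripts came from GENCODE M21 (GRCm38) and promoters and miRNA from RefSeq (GRCm38.p6), joined to the tables by symbol or older symbol, since the counts were made on another build. Named were the 10 genes, other Ifit, Ifitm and Mx genes, the nearest coding genes, interferon ligands, receptors, Stat2, Irf9 and Irf7, and the 5 highest and 5 lowest of the list of further interferon-stimulated genes. Some genes of these lists are not reported here. Members and lists were chosen with earlier results of these data known. The alternatives were other scalings, filters and folds, assumed variation in edgeR's exact test, other motif lengths and transcript lengths, and, chosen after seeing the data, subtraction of the median of a length group.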

Additional observations from a re-analysis of the deposited data

Results flagged for a closer look

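The share of entries aligned to more than one place is outside the gene counts, and it was higher in the mimic library, 39.85%, than in the scramble library, 35.6%. Close copies such as Ifit3 and Ifit3b can lose reads to this class, and how many reads of the antiviral effectors are in it cannot be read from the counts.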

How the results depend on the processing

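No paired analysis was possible because each group has 1 library. Of 86 alternative values 74 stayed within the counting interval or within 1.5 times of a count, and none changed sign in a called gene. DESeq2 size factors (DESeq2 1.42.0), total counts and upper-quartile factors moved the log2 ratio of a member by at most 0.019. The number of members called higher, 8, was 4 at a log2 ratio of at least 1.5 (1.66% of all genes) and 4 with edgeR's exact test at an assumed coefficient of variation of 0.2 (1.21% of all genes), where Ifit3, Mx1, Rsad2 and Ifi44 passed. It was 0 at an assumed coefficient of 0.4 (0.0246% of all genes). The files hold no replicates from which that coefficient could be estimated. After the median of the same length group was subtracted, the log2 ratios that moved were -0.051 in Ifit2, 1.45 in Ifit3, 0.37 in Ifi35, 0.92 in Bst2 and 0.64 in Ifitm3. Of the 73 further interferon-stimulated genes tested, 24 were called higher (3.96% of all genes), 43 at a log2 ratio of at least 0.5 (14.9% of all genes) and 11 at 1.5 (1.66% of all genes). The members with a seed match were 1 with the 6-base match in place of 0. The scramble level of Ifi44 was 1.23 RPKM with the length of its coding transcript and 0.883 with that of its longest transcript. The fold, the assumed variation and the match length change these counts by construction. Depth limits Mx2 most, with 53 reads in the scramble library.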
